A study of Mus musculus with 44 samples.

Results

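The 9 genes described here encode transcription factors that specify and maintain the hepatocyte: Hnf4a, Foxa1, Foxa2, Foxa3, Cebpa, Onecut1, Prox1, Nr5a2 and Nr1i3. They were taken by name from a table of raw read counts of mouse liver RNA, after its Ensembl identifiers had been matched to gene symbols, and are 9 of the 35249 genes in that table. All 9 passed the filter on low counts, as 9 of the 14862 genes tested. The study asked what blocking necroptosis, a lytic form of programmed cell death, does to the liver during diet-induced injury that leads to hepatocellular carcinoma. Ripk3 encodes the kinase and Mlkl the membrane-disrupting effector of that death pathway.

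Livers came from wild-type (WT) mice, from mice lacking Ripk3 (Ripk3-/-) and from mice lacking Mlkl (Mlkl-/-). From 2 months of age the mice were given normal chow (control diet), a low-fat diet without choline, labelled CD-LFD, or its high-fat counterpart, labelled CD-HFD, for 6 months. Every genotype had 6 control libraries. WT had 6 CD-LFD and 6 CD-HFD libraries, Ripk3-/- had 3 and 4, and Mlkl-/- had 4 and 3, which gives 9 groups and 44 libraries. The sources used here do not state the strain or sex of the mice, how the null alleles were made, or whether each library is 1 animal, so the p-values measure the spread between these libraries. Both knockouts are labelled as null genotypes of the mice, with no cell type named.

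As background, these factors form a mutually reinforcing network. FOXA proteins open chromatin at liver enhancers, HNF4A, a nuclear receptor, occupies promoters and enhancers of most hepatocyte genes, and C/EBPα, HNF6 (the product of Onecut1), PROX1 and LRH-1 (the product of Nr5a2) act with them. CAR, the product of Nr1i3, is the receptor that switches on drug-metabolising enzymes. Injured livers are known to lose part of this programme while bile-duct and fetal genes come on.

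Total counts ranged from 2476268 to 12471844 in 43 libraries and reached 88204703 in WT CD-LFD replicate 3. Ripk3 was at 0.439 to 4.78 CPM (counts scaled to a common library total) in WT control livers and at 0 to 1.01 in the Ripk3-/- control livers, where replicate 5 was the highest. Mlkl was at 1.24 to 2.61 CPM in Mlkl-/- control livers against 2.02 to 5.50 in WT control livers, ranges that overlap, and reached 14.4 in Mlkl-/- CD-HFD replicate 1; where the deletion lies relative to these reads is not given in the sources used here. That 14.4 lies nearer to the WT CD-HFD livers (17.2 to 22.6) than to the other 2 libraries labelled Mlkl-/- on CD-HFD (3.55 and 6.02), so values of that group rest on 3 libraries of which 1 is in doubt. Without it the same comparison with control still called 4 members lower (log2 changes of -2.11 for Foxa3, -1.35 for Hnf4a, -1.07 for Prox1 and -0.90 for Nr5a2; adjusted p from 6.62e-05 to 0.0142, edgeR). Summed over 6 hepatocyte markers, the livers held 70425 to 129229 CPM in WT, and pancreatic acinar markers stayed at or below 3.85 CPM in all groups. In 11 libraries, all WT, the log2 ratio of the clock genes Arntl and Dbp was higher than in the other 33: 4 of the WT control, all 6 WT CD-LFD and 1 WT CD-HFD library. These 2 sets, called clock phases here, were split at a gap of 0.969 between a ratio of -2.63 and one of -3.60. The split comes from the ratio and not from a label. All knockout libraries were among the 33, so that genotype and this clock difference partly coincide.

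Levels of the members below are CPM scaled by the trimmed mean of M values (TMM), which sets the bulk of genes level between libraries. Compared per kilobase of exon in WT control livers, Cebpa was highest with 206 CPM per kb and Hnf4a next with 126. Foxa3 followed with 34.8, Foxa2 with 16.2, Prox1 with 14.4, Nr5a2 with 10.3, Nr1i3 with 8.44, Foxa1 with 7.30 and Onecut1 with 4.72. The libraries of Cebpa (115 to 287) and Hnf4a (88.4 to 176) overlapped, as did those of each neighbouring pair from Foxa3 down. The order was not fixed: in Mlkl-/- control livers Hnf4a (247) was above Cebpa (178), in Ripk3-/- control livers the 2 were level (213 and 215), and in WT CD-LFD livers Foxa2 (15.9) and Foxa3 (15.7) were level.

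Part of this set was lower on both choline-deficient diets in every genotype, and no member was called higher. In WT, 5 of 9 members were lower on CD-HFD than on control diet: Hnf4a, Foxa3, Cebpa, Prox1 and Nr5a2 (adjusted p below 0.05, edgeR quasi-likelihood test over all genes); 24.1% of all genes tested were called lower there and 47.7% were called in either direction. On CD-LFD 4 of 9 were lower in WT, where 14.0% of all genes were called lower and 27.7% in either direction. In Ripk3-/- livers 8 of 9, all but Nr1i3, were lower on CD-HFD, against 21.7% of all genes (46.3% in either direction), and 3 of 9 on CD-LFD, against 10.1% (24.1%). Mlkl-/- livers had 4 of 9 lower on CD-HFD, against 20.3% (45.2%), and 4 of 9 on CD-LFD, against 18.3% (37.9%).

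The median log2 change of the 9 members on CD-HFD was -0.69 in WT, -0.86 in Ripk3-/- and -0.93 in Mlkl-/- livers, beside medians of -0.07, -0.05 and -0.04 over all genes. On CD-LFD the member medians were -0.49, -0.63 and -0.82, beside -0.03, 0.01 and 0.06 over all genes. Foxa3 and Prox1 were called lower in all 6 of these comparisons, Hnf4a and Nr5a2 in 5, Cebpa in 3, Foxa1, Foxa2 and Onecut1 in 1 and Nr1i3 in none. Hnf4a, Foxa3, Prox1 and Nr5a2 were called lower on CD-HFD in all 3 genotypes, as were 10.6% of all genes; on CD-LFD this held for Foxa3 and Prox1, and for 3.80% of all genes.

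These changes are relative to the bulk of genes. Scaled by library size alone, the member medians were -0.19, -0.33 and -0.39 on CD-HFD in WT, Ripk3-/- and Mlkl-/- livers, with 7, 8 and 5 of 9 members below zero, and -0.19, -0.33 and -0.67 on CD-LFD, with 8, 5 and 8 below zero. The median of all genes itself then stood at 0.43, 0.49 and 0.49 on CD-HFD, and the members called lower were 0, 2 (Hnf4a and Foxa3) and 3 (Hnf4a, Foxa3 and Prox1). In bulk tissue, fewer hepatocytes and less RNA per hepatocyte cannot be told apart. Summed markers of some other cell types were higher on the diet: from control to CD-HFD in WT, 6 cholangiocyte markers went from 54.2 to 114 CPM up to 857 to 1482, 6 macrophage markers from 85.1 to 165 up to 508 to 1369, 6 stellate cell and fibroblast markers from 155 to 207 up to 899 to 1958, and T cell markers from 0.808 to 2.87 up to 12.4 to 29.6. B cell markers overlapped (0.853 to 8.13 and 6.23 to 11.4 CPM). The sum of 6 endothelial markers was at 176 to 266 CPM on control diet and 140 to 262 on CD-HFD. With TMM scaling 5 of the 6 were called lower and 0 higher (median log2 change -0.80), as were 4 of 6 on CD-LFD (median -0.84). Beside these stand 24.1% and 14.0% of all genes called lower. In the same libraries the 6 hepatocyte markers were at 83425 to 129229 CPM on control diet and 70425 to 100302 on CD-HFD, ranges that overlap. In Ripk3-/- livers they were at 82901 to 117125 CPM on control diet and 74437 to 96475 on CD-HFD. Mlkl-/- livers held 84273 to 99489 CPM on control diet and 84020 to 102507 on CD-HFD. On CD-LFD the Mlkl-/- livers were higher, at 107533 to 119437 CPM. The part of these cells in the members' changes was not tested.

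**Figure D1:**
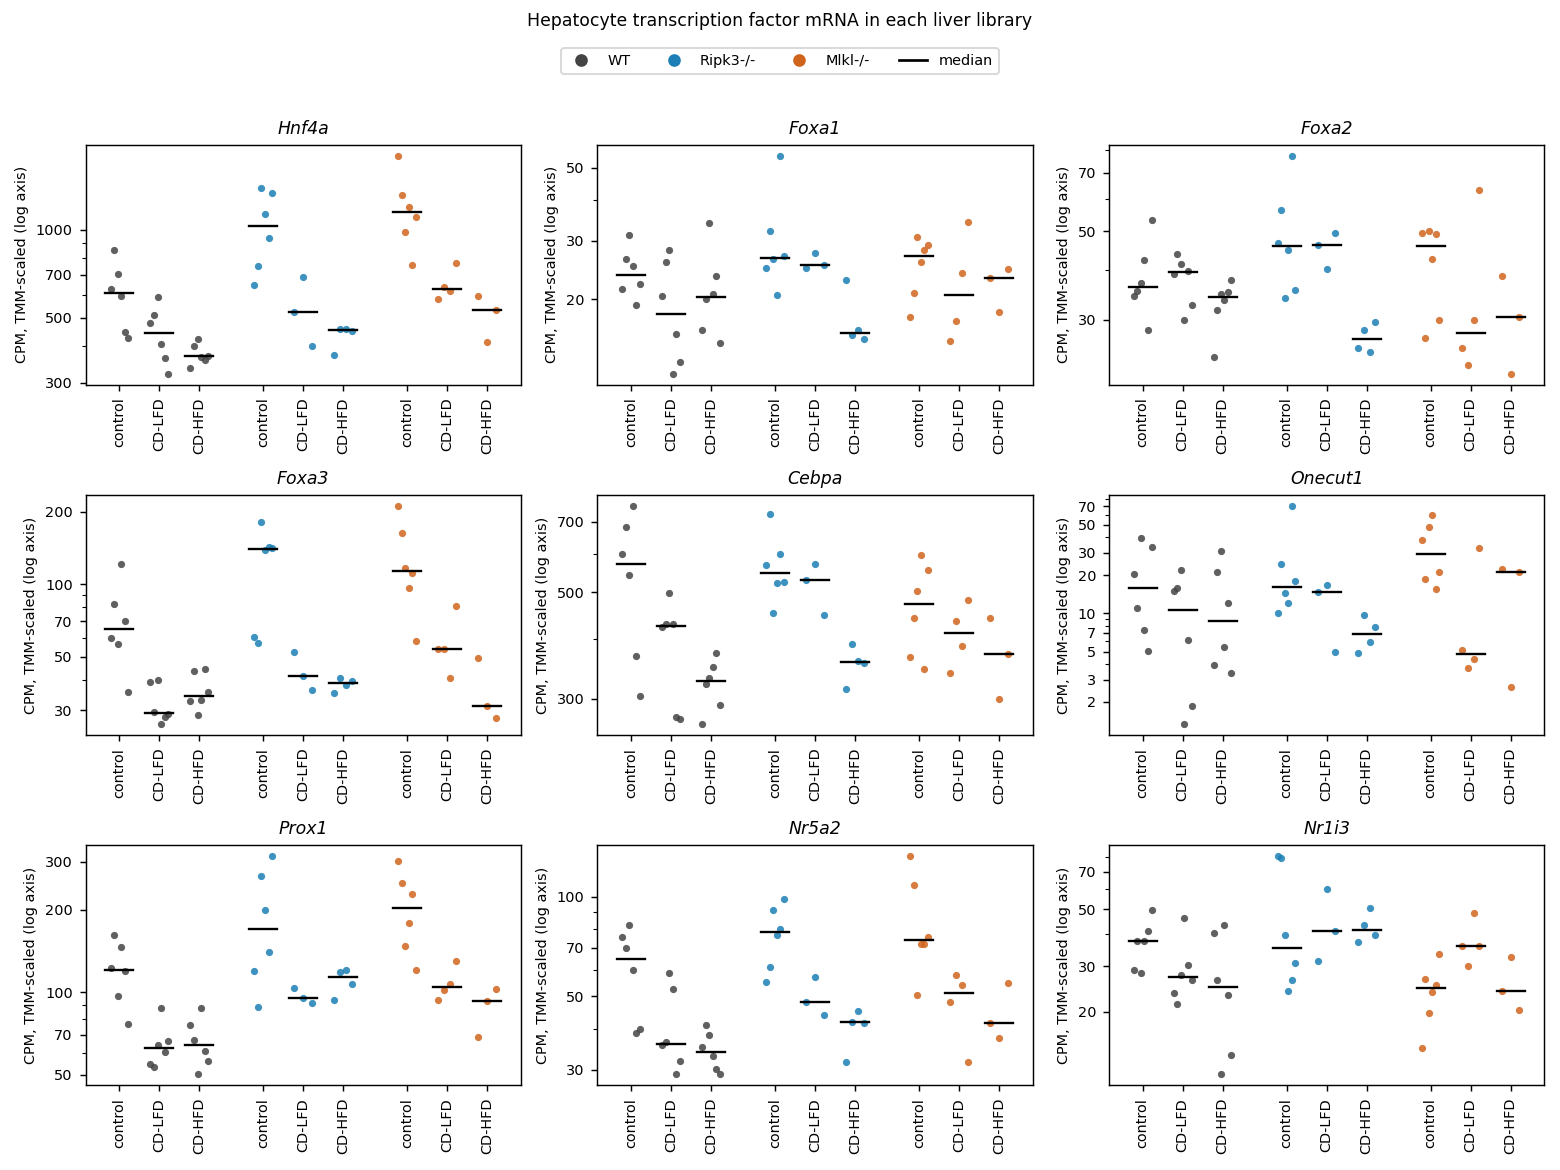
TMM-scaled CPM (log axis) of each of the 9 genes in each of the 44 libraries, by genotype (colour) and diet, with a line at each group's median. Hnf4a, Foxa3, Prox1 and Nr5a2 step down from control to CD-HFD in every genotype, while Onecut1 spreads up to 16.4-fold within a group.

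Hnf4a encodes the nuclear receptor HNF4α and was the most abundant nuclear receptor of the set. RefSeq (GRCm38.p6) places 2 transcription starts at the gene; the 250 bases before each are shown because Hnf4a moved in all genotypes, with capitals for matches to the HNF1 motif GTTAAT, the ONECUT motif ATCAAT or the C/EBP motif TTNCNNAA, read on both strands. The first lies at chr2:163506607-163506856 and the second at chr2:163546905-163547154, both on the + strand.
Hnf4a start 1: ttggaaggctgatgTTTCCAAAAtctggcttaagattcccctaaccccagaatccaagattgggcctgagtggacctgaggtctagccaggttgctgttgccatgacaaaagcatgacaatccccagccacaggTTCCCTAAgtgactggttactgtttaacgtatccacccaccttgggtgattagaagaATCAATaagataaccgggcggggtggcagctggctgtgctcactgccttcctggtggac
Hnf4a start 2: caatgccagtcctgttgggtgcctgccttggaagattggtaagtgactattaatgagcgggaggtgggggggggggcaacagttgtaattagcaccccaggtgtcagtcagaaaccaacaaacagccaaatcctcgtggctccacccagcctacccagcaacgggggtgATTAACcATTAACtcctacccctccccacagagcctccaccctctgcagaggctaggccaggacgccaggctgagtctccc
The second start has 2 HNF1 matches, 81 and 74 bases before it, and 6.43% of 32851 mouse promoters of this length hold at least 1. The first has 3 C/EBP matches, of which 2 overlap, a motif that 36.8% of promoters hold, and 1 ONECUT match, which 6.72% hold. The counts do not separate transcripts from the 2 starts. The antisense neighbours Hnf4aos and Prox1os were at 0 to 13.2 CPM and 1.40 to 13.7 CPM of the library total; whether the counting used strand is not given in the sources used here.

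In WT livers Hnf4a ran from 427 to 851 CPM on control diet (median 609), from 321 to 591 on CD-LFD (median 443) and from 336 to 423 on CD-HFD (median 369). All 6 CD-HFD libraries lay below all 6 control libraries, a separation downward that 6.63% of genes showed. Hnf4a fell by 0.69 (SE 0.19) on the log2 scale, a 1.62-fold difference (adjusted p = 0.00233, edgeR); with CD-LFD the change was -0.45 (SE 0.19, adjusted p = 0.0689).

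On control diet the median of Hnf4a was higher in both knockouts than in WT, with ranges that overlapped those of WT. Ripk3-/- control livers held 648 to 1385 CPM of Hnf4a (median 1031), against 373, 449, 457 and 458 in the 4 CD-HFD livers, and the groups did not overlap, as for 15.9% of genes that separated downward. That was a 2.37-fold fall (log2 change -1.25, SE 0.22, adjusted p = 9.81e-06). Mlkl-/- control livers held 759 to 1791 CPM (median 1149) against 414, 530 and 592 on CD-HFD, again with no overlap (17.2% of genes separated downward), a 2.33-fold fall (log2 change -1.22, SE 0.24, adjusted p = 7.2e-05). On CD-LFD the 3 Ripk3-/- livers held 399, 525 and 689 CPM, of which the highest overlapped the control range, and the 4 Mlkl-/- livers 577, 616, 635 and 769. Hnf4a fell by 0.94 (SE 0.24, adjusted p = 0.00388) and by 0.87 (SE 0.22, adjusted p = 0.00167) on the log2 scale there; the call in Ripk3-/- livers was lost without CD-LFD replicate 3 (adjusted p = 0.0666).

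The 3 FOXA genes encode forkhead pioneer factors with near-identical DNA-binding domains. Foxa3 fell in all 6 diet comparisons, and Foxa1 and Foxa2 each passed the test in 1, Ripk3-/- livers on CD-HFD; the shares of the 3 genes within a library are compared further on, and none of those differences passed after adjustment. The promoter of Foxa3 is shown because this gene had the largest fall among the members called in WT and Mlkl-/- livers on CD-HFD; it lies at chr7:19023540-19023789 on the - strand, and no capitals appear because none of the motifs searched, the 3 above and FOX (TGTTTAC), HNF4 (AAGTCCA) and NR5A (AAGGTCA), was found in it.
Foxa3: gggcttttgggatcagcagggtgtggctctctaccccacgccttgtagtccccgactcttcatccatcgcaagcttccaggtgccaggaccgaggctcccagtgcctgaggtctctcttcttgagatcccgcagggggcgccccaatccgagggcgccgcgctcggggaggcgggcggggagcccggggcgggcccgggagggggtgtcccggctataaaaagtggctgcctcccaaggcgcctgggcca
Those last 3 motifs are held by 3.17%, 3.36% and 4.08% of mouse promoters of this length, and by 1, 0 and 0 of the members' 14 promoters.

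In WT livers Foxa3 ran from 35.7 to 121 CPM on control diet (median 64.9), from 26.2 to 39.9 on CD-LFD (median 29.2) and from 28.7 to 44.2 on CD-HFD (median 34.4). Both diet groups reached only the lowest control library, replicate 6. Foxa3 fell by 1.14 (SE 0.26, adjusted p = 0.0011) on CD-LFD and by 0.96 (SE 0.26, adjusted p = 0.00233) on CD-HFD on the log2 scale, and the CD-LFD call also held under library-size scaling (log2 change -0.83, adjusted p = 0.00861).

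Foxa3 in Ripk3-/- livers was at 56.8 to 181 CPM on control diet (median 140), at 36.3, 41.7 and 52.5 on CD-LFD and at 35.5, 38.1, 39.7 and 40.7 on CD-HFD. Neither diet group overlapped the control libraries; 9.79% of genes separated downward on CD-LFD. The falls were 2.77-fold (log2 change -1.47, SE 0.34, adjusted p = 0.00136) and 3.12-fold (log2 change -1.64, SE 0.30, adjusted p = 2.05e-05). Mlkl-/- livers held 58.0 to 212 CPM on control diet (median 114) and 40.6, 53.7, 53.9 and 80.9 on CD-LFD, and those on CD-HFD 27.7, 31.1 and 49.3, with CD-HFD alone free of overlap. The CD-HFD fall was 3.51-fold (log2 change -1.81, SE 0.34, adjusted p = 3.32e-05) and the CD-LFD fall 2.2-fold (log2 change -1.14, SE 0.30, adjusted p = 0.00266).

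Foxa2, the FOXA member tied to fasting metabolism and bile acid transport, was at 28.3 to 53.3 CPM in WT control livers (median 36.3) and at 24.2 to 37.7 on CD-HFD (median 34.2), so the groups overlapped (log2 change -0.23, SE 0.20, adjusted p = 0.364). In Ripk3-/- livers it was at 33.9 to 77.3 CPM on control diet (median 45.8) against 24.8, 25.5, 28.3 and 29.6 on CD-HFD, with no overlap. Foxa2 fell by 0.86 there on the log2 scale (SE 0.23, adjusted p = 0.00203). Its 3 Ripk3-/- CD-LFD libraries, at 40.3, 46.2 and 49.3 CPM, stayed within the control range. Mlkl-/- livers held 26.9 to 49.9 CPM of Foxa2 on control diet (median 45.9), and their 4 CD-LFD libraries scattered most, at 23.1, 25.5, 30.0 and 63.4. Neither diet change was called there (CD-LFD -0.22, SE 0.23, adjusted p = 0.442; CD-HFD -0.45, SE 0.25, adjusted p = 0.139).

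Foxa1, which with Foxa2 is needed to specify the liver in the embryo, was at 19.2 to 31.3 CPM in WT control livers (median 23.7) and at 14.8 to 34.0 on CD-HFD (median 20.3), groups that overlapped (log2 change -0.18, SE 0.22, adjusted p = 0.528). In Ripk3-/- livers it was at 20.6 to 54.3 CPM on control diet (median 26.7) and at 15.1, 15.6, 16.1 and 22.8 on CD-HFD, a 1.79-fold fall (log2 change -0.84, SE 0.25, adjusted p = 0.00614). The 54.3 CPM belong to control replicate 5, the library in which Foxa2 (77.3) and Onecut1 (70.5) were also the highest of the group, and the one with the most Ripk3 among the Ripk3-/- control libraries (1.01 CPM; 0.263 and 0.251 in replicates 3 and 4 and 0 in the other 3). Without it and Mlkl-/- CD-HFD replicate 1, Foxa1 changed by -0.57 (adjusted p = 0.0492) and Foxa2 by -0.66 (adjusted p = 0.0135). In Mlkl-/- livers Foxa1 changed by -0.19 (SE 0.25, adjusted p = 0.571) with CD-LFD and by -0.22 (SE 0.27, adjusted p = 0.544) with CD-HFD. Under library-size scaling neither FOXA gene was called in Ripk3-/- livers on CD-HFD (Foxa1 -0.30, adjusted p = 0.313; Foxa2 -0.33, adjusted p = 0.234).

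The balance within the FOXA family does not depend on how libraries are scaled. Of the FOXA counts per kilobase, Foxa3 made up 58.0% ± 11.8 (SD, n = 6) in WT control livers. Its share was 42.1% ± 4.04 (n = 6) for the low-fat and 46.8% ± 6.09 (n = 6) for the high-fat choline-deficient diet. Among Mlkl-/- livers the share went from 69.0% ± 9.76 (n = 6) on control diet to 57.3% ± 7.41 (n = 4) and 47.3% ± 6.24 (n = 3), and in Ripk3-/- livers from 64.1% ± 13.9 (n = 6) to 44.1% ± 5.19 (n = 3) and 53.2% ± 2.40 (n = 4). The mean share was thus lower on both diets in all 3 genotypes. Foxa2 took up most of the difference in WT CD-LFD livers, at 42.9% ± 3.51 (n = 6) against 29.1% ± 9.97 (n = 6) on control diet.

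The shares, and the Hnf4a to Cebpa ratio given further on, were chosen after the values had been seen and make a family of 24 two-sided exact permutation tests. The Foxa3 share differed from control with p = 0.0173 for WT on CD-LFD and p = 0.0238 for Mlkl-/- on CD-HFD, the smallest p that 3 libraries against 6 allow; both have an exact permutation p of 0.0714 after Benjamini-Hochberg adjustment and do not pass. On CD-LFD the share was higher in all 4 Mlkl-/- than in all 6 WT livers (57.3% against 42.1%, exact permutation p = 0.00952, adjusted 0.0571), and these groups differ in clock phase too.

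**Figure D2:**
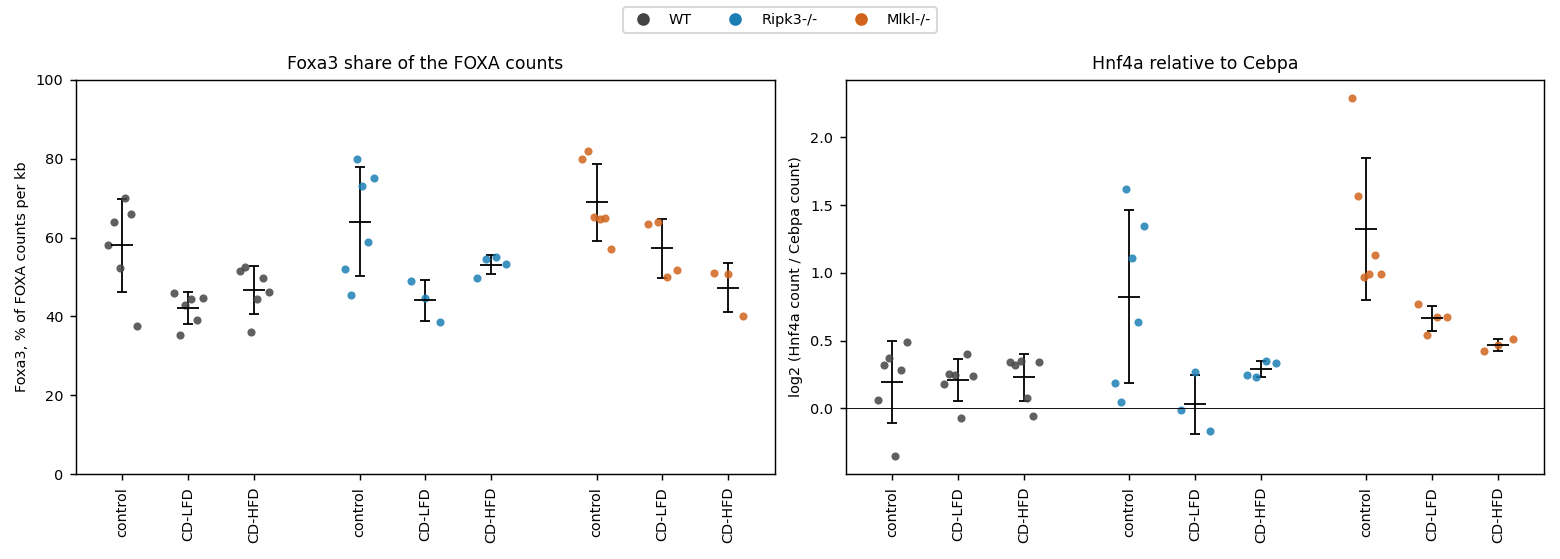
Left, share of Foxa3 in the summed FOXA counts per kilobase (percent). Right, log2 ratio of Hnf4a to Cebpa counts. Points are libraries, bars the mean and SD of each genotype and diet group; the mean Foxa3 share is lower on both choline-deficient diets in each genotype, with overlap in all but Mlkl-/- livers on CD-HFD and no difference past the adjusted threshold, and the mean ratio is highest in Mlkl-/- control livers.

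Cebpa encodes C/EBPα, a bZIP factor that drives metabolic genes and restrains hepatocyte division. In WT livers it ran from 304 to 756 CPM on control diet (median 572), from 273 to 497 on CD-LFD (median 425) and from 266 to 373 on CD-HFD (median 326). The lowest control libraries, replicates 5 and 6, reached into both diet groups. Cebpa fell by 0.75 (SE 0.18, adjusted p = 0.000495) on CD-HFD and by 0.49 (SE 0.18, adjusted p = 0.0352) on CD-LFD on the log2 scale; the CD-LFD call held in 6 of 12 fits that left out 1 library.

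In Ripk3-/- livers Cebpa was at 452 to 727 CPM on control diet (median 547) and at 314, 356, 359 and 390 on CD-HFD, with no overlap, a 1.6-fold fall (log2 change -0.67, SE 0.20, adjusted p = 0.00537). Mlkl-/- livers held 346 to 598 CPM on control diet (median 472) and 300, 371 and 441 on CD-HFD, groups that overlapped (log2 change -0.34, SE 0.22, adjusted p = 0.208). The interval of that change, -0.78 to 0.10, includes the WT value. On CD-LFD neither knockout had a called change of Cebpa (Ripk3-/- -0.13, SE 0.22, adjusted p = 0.687; Mlkl-/- -0.19, SE 0.20, adjusted p = 0.457).

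Onecut1 encodes HNF6, a factor shared by hepatocytes and bile-duct cells, and had the largest coefficient of variation of the members in all 9 groups. Per kilobase it was the lowest member in 8 groups; in Mlkl-/- control livers (8.14 CPM per kb) it stood above Foxa1 (7.65) and Nr1i3 (5.43). WT control livers ran from 5.02 to 39.2 CPM (median 15.8), CD-LFD livers from 1.34 to 21.9 (median 10.6) and CD-HFD livers from 3.41 to 31.2 (median 8.75). Its coefficient of variation within a group was between 30.5% and 123%, and the diet changes in WT (-0.90 with SE 0.62, and -0.64 with SE 0.61) were not called. Ripk3-/- livers held 10.1 to 70.5 CPM on control diet (median 16.3) and 4.83, 5.94, 7.76 and 9.76 on CD-HFD, without overlap, and Onecut1 fell by 1.82 on the log2 scale (SE 0.72, adjusted p = 0.0368). Without control replicate 5 the Onecut1 change was -1.14 (adjusted p = 0.191). Mlkl-/- control livers held 15.6 to 59.7 CPM (median 29.6); 3 of their 4 CD-LFD libraries were lower, at 3.73, 4.33 and 5.17, and the remaining one was at 32.8. That change of -1.56 (SE 0.71) was not called (adjusted p = 0.0764), although its interval of -2.99 to -0.13 leaves out zero. The 3 Mlkl-/- CD-HFD libraries, at 2.61, 21.1 and 22.3 CPM, gave no called change either (-1.14, SE 0.77, adjusted p = 0.23).

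Prox1 encodes a homeobox factor that represses other lineages in hepatocytes and also marks lymphatic endothelium. It and Foxa3 were the 2 members called lower by both diets in all 3 genotypes. RefSeq lists 2 starts; the 250 bases before the first, at chr1:190170828-190171077 on the - strand, hold no match to the motifs searched and so no capitals.
Prox1 start 1: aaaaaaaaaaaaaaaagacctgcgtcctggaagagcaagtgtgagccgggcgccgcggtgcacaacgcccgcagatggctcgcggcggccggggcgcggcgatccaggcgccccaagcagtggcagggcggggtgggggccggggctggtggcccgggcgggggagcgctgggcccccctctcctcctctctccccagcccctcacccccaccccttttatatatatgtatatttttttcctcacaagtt
In WT livers Prox1 ran from 76.5 to 162 CPM on control diet (median 121), from 53.4 to 87.5 on CD-LFD (median 62.5) and from 50.3 to 87.4 on CD-HFD (median 64.1). Only the lowest control library, replicate 6, fell inside the diet groups. The changes were -0.90 (SE 0.22, adjusted p = 0.00226) and -0.86 (SE 0.22, adjusted p = 0.00142).

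Prox1 in Ripk3-/- livers was at 88.8 to 315 CPM on control diet (median 170), at 91.6, 95.3 and 104 on CD-LFD and at 93.6, 108, 119 and 120 on CD-HFD. One control library, replicate 2, was below all of these. The falls were 1.94-fold (log2 change -0.96, SE 0.28, adjusted p = 0.0113) and 1.71-fold (log2 change -0.77, SE 0.25, adjusted p = 0.0106); the first was lost without CD-LFD replicate 3 (adjusted p = 0.0763) and the second without control replicate 6 (adjusted p = 0.0537). Mlkl-/- livers held 121 to 302 CPM on control diet (median 204) and 93.9, 102, 108 and 130 on CD-LFD, and those on CD-HFD 68.9, 93.2 and 103, where the groups separated. The falls were 1.89-fold (log2 change -0.92, SE 0.25, adjusted p = 0.00436) and 2.31-fold (log2 change -1.21, SE 0.28, adjusted p = 0.000558). The summed markers of lymphatic endothelium were at 53.7 to 86.8 CPM in WT control, 39.2 to 75.6 in WT CD-LFD and 55.8 to 92.8 CPM in WT CD-HFD livers. Of the 5 tested, 1 was called lower and 0 higher in WT on CD-LFD (median log2 change -0.48), 1 lower and 1 higher in Ripk3-/- and 2 lower and 0 higher in Mlkl-/- livers. On CD-HFD, 1 was lower and 1 higher in WT (median 0.45), 1 lower and 2 higher in Ripk3-/- (median 0.29) and 0 lower and 2 higher in Mlkl-/- livers (median 0.44). Over these comparisons 10.1% to 24.1% of all genes were called lower and 13.7% to 24.9% higher. The part of the lymphatic markers' cells in the fall of Prox1 was not tested.

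Nr5a2 encodes LRH-1, a nuclear receptor for phospholipids that controls bile acid and cholesterol genes. RefSeq lists 2 starts; the first, at chr1:136960449-136960698 on the - strand, has 1 HNF1 match 236 bases and 1 C/EBP match 11 bases before the start, in capitals.
Nr5a2 start 1: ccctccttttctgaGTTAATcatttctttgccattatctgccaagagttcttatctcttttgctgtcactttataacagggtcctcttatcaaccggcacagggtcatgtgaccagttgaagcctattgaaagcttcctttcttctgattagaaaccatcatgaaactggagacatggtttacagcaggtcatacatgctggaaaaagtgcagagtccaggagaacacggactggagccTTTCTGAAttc
In WT livers Nr5a2 ran from 38.8 to 82.2 CPM on control diet (median 64.9), from 29.2 to 59.0 on CD-LFD (median 36.0) and from 29.1 to 40.9 on CD-HFD (median 34.0). The 2 lowest control libraries, replicates 5 and 6, overlapped the diet groups. Nr5a2 fell by 0.84 (SE 0.20, adjusted p = 0.000805) on CD-HFD and by 0.58 (SE 0.20, adjusted p = 0.0283) on CD-LFD on the log2 scale, the latter in 5 of 12 fits that left out 1 library.

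Nr5a2 in Ripk3-/- livers was at 55.2 to 98.4 CPM on control diet (median 78.1) and at 31.8, 41.6, 41.8 and 45.2 on CD-HFD, with no overlap, a 1.92-fold fall (log2 change -0.94, SE 0.23, adjusted p = 0.000925). In Mlkl-/- livers it was at 50.6 to 133 CPM on control diet (median 73.8) and at 37.3, 41.4 and 54.8 on CD-HFD, which overlapped at 1 library. The fall was 1.91-fold (log2 change -0.93, SE 0.26, adjusted p = 0.00281). On CD-LFD the change was -0.82 (SE 0.23, adjusted p = 0.00507) in Mlkl-/- and -0.63 (SE 0.25, adjusted p = 0.063) in Ripk3-/- livers.

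Nr1i3, the gene of CAR, was the 1 member called in no diet comparison. WT livers ran from 28.3 to 49.9 CPM on control diet (median 37.6), from 21.4 to 46.1 on CD-LFD (median 27.2) and from 11.5 to 43.6 on CD-HFD (median 25.0). All 3 WT groups overlapped (CD-HFD change -0.49, SE 0.28, adjusted p = 0.152; 95% interval -1.05 to 0.08). In Mlkl-/- livers the values were 14.4 to 33.4 CPM on control diet (median 24.7) and 30.3, 36.0, 36.0 and 48.4 on CD-LFD, a change of 0.65 (SE 0.31, adjusted p = 0.0901). This is the one diet value above zero with an interval, 0.03 to 1.27, that leaves out zero, and it was called under library-size scaling (0.78, adjusted p = 0.0419). Ripk3-/- control livers comprised 2 libraries at 79.2 and 80.5 CPM and 4 at 24.1 to 39.8, and the CD-HFD libraries lay within the same range, at 37.5, 39.8, 43.5 and 50.4 (log2 change -0.13, SE 0.31, adjusted p = 0.766). The Nr1i3 level of Mlkl-/- livers differed from WT by -0.63 (SE 0.28, adjusted p = 0.095) on control diet and by 0.36 (SE 0.31, adjusted p = 0.627) on CD-LFD, and the interaction of Mlkl-/- with CD-LFD, the difference between the diet changes, was 0.99 (SE 0.42, adjusted p = 0.132).

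**Figure D3:**
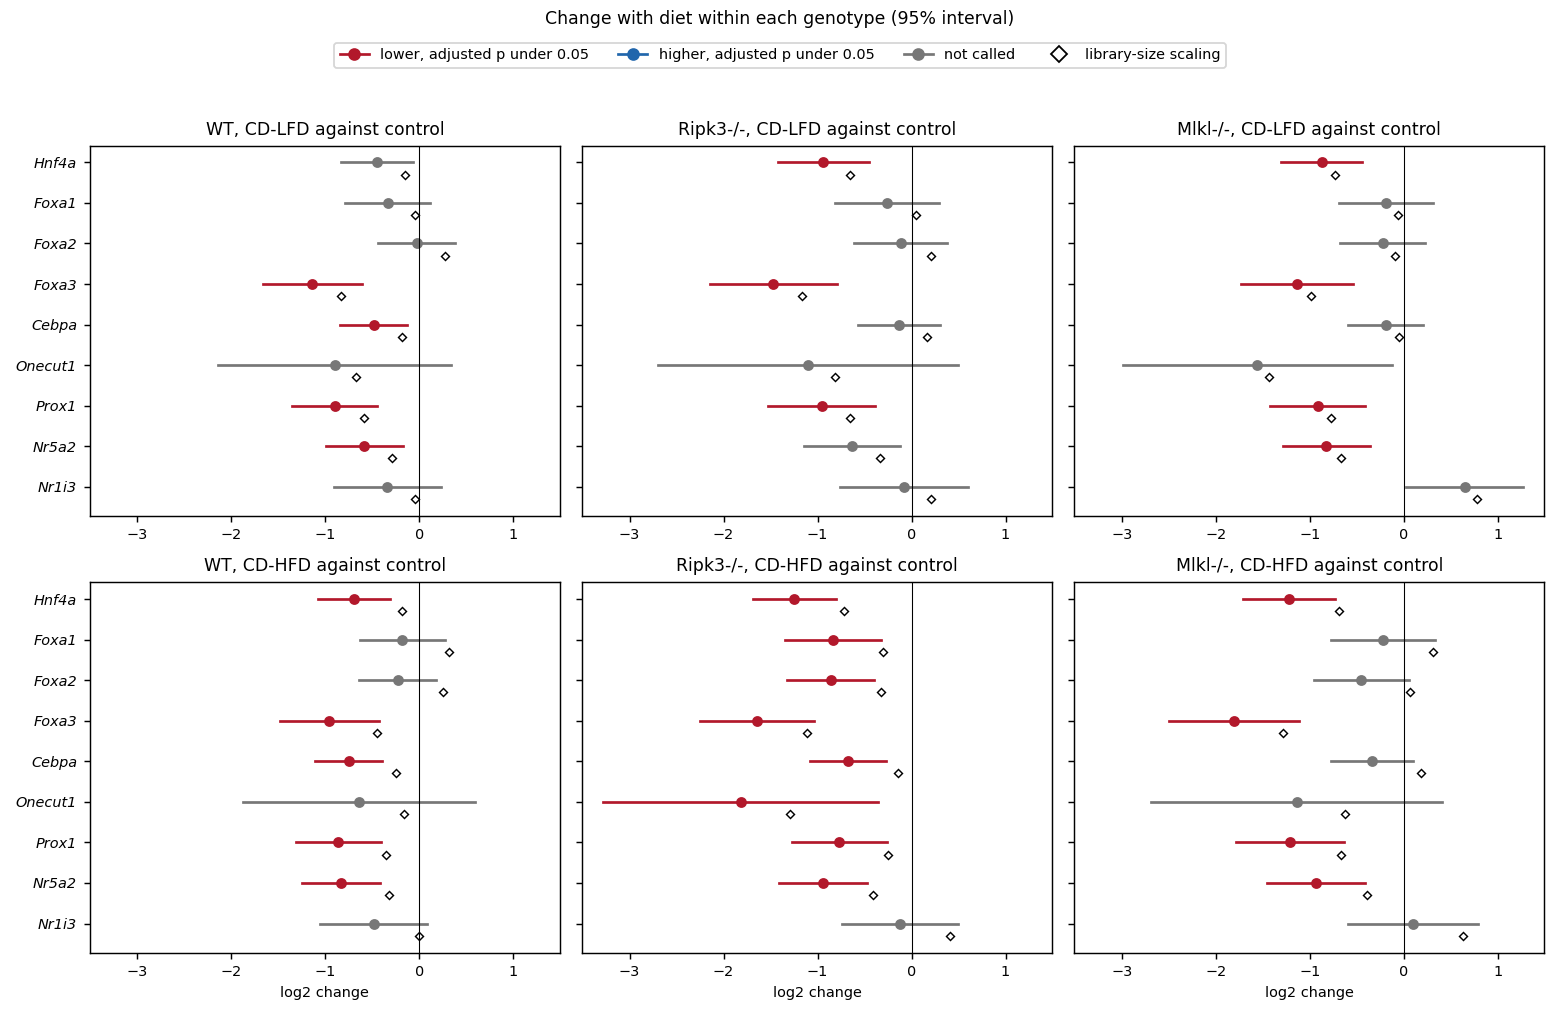
log2 change of each member with CD-LFD (top) or CD-HFD (bottom) against control diet in each genotype, with 95% intervals; filled points use TMM scaling and open diamonds library size alone. Foxa3 and Prox1 are called lower in all 6 panels, and every diamond lies to the right of its point.

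The fat content of the choline-deficient diet made no called difference to the members. Between CD-HFD and CD-LFD 0 of 9 members were called in WT, where 21.1% of all genes were, 0 of 9 in Ripk3-/- (8.83%) and 0 of 9 in Mlkl-/- livers (23.7%). The lowest adjusted p was that of Foxa2 in Ripk3-/- livers, which changed by -0.74 (SE 0.26, adjusted p = 0.0687); Cebpa changed there by -0.54 (SE 0.23, adjusted p = 0.143). All 4 CD-HFD libraries lay below all 3 CD-LFD libraries for both genes and for Foxa1, as for 15.2% of all genes. With only these 2 groups fitted, 3 members were called there.

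The knockouts were set against WT on each diet to ask whether blocking necroptosis alters these genes. On control diet, Hnf4a was higher than in WT in both knockouts, by 0.76 in Ripk3-/- livers (SE 0.19, adjusted p = 0.0128) and by 0.97 in Mlkl-/- livers (SE 0.19, adjusted p = 0.000192) on the log2 scale. Both comparisons use the same 6 WT libraries. The Ripk3-/- call held in 11 of 12 fits that left out 1 library and in 6 of 10 other alternatives. For Mlkl-/- livers these counts were 12 of 12 and 8 of 9. The control values given above show 5 of 6 Mlkl-/- libraries above the highest WT library of 851 CPM, and 4 of 6 Ripk3-/- libraries. Foxa3 (0.84, SE 0.26, adjusted p = 0.0139) and Prox1 (0.76, SE 0.22, adjusted p = 0.00888) were also called higher in Mlkl-/- control livers. Called higher were thus 1 of 9 members in Ripk3-/- livers, against 2.25% of all genes, and 3 of 9 in Mlkl-/- livers, against 13.0%.

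On the choline-deficient diets no member's difference from WT was called. Among Ripk3-/- livers 0 of 9 were called on CD-LFD and 0 of 9 on CD-HFD, where 1.10% and 0.377% of all genes were, and among Mlkl-/- livers 0 of 9 on each, where 2.56% and 0% were. Prox1 was at 93.6 to 120 CPM in the 4 Ripk3-/- CD-HFD livers against at most 87.4 in WT, a separation upward that 2.96% of genes showed (log2 difference 0.73, SE 0.24, adjusted p = 0.231). On CD-LFD, Prox1 also separated upward from WT in Ripk3-/- livers (0.59, SE 0.27, adjusted p = 0.372), as did 4.27% of genes. In Mlkl-/- livers on CD-LFD both Prox1 (0.75, SE 0.24, adjusted p = 0.0905) and Foxa3 (0.84, SE 0.28, adjusted p = 0.108) separated upward, as did 3.88% of genes.

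**Figure D4:**
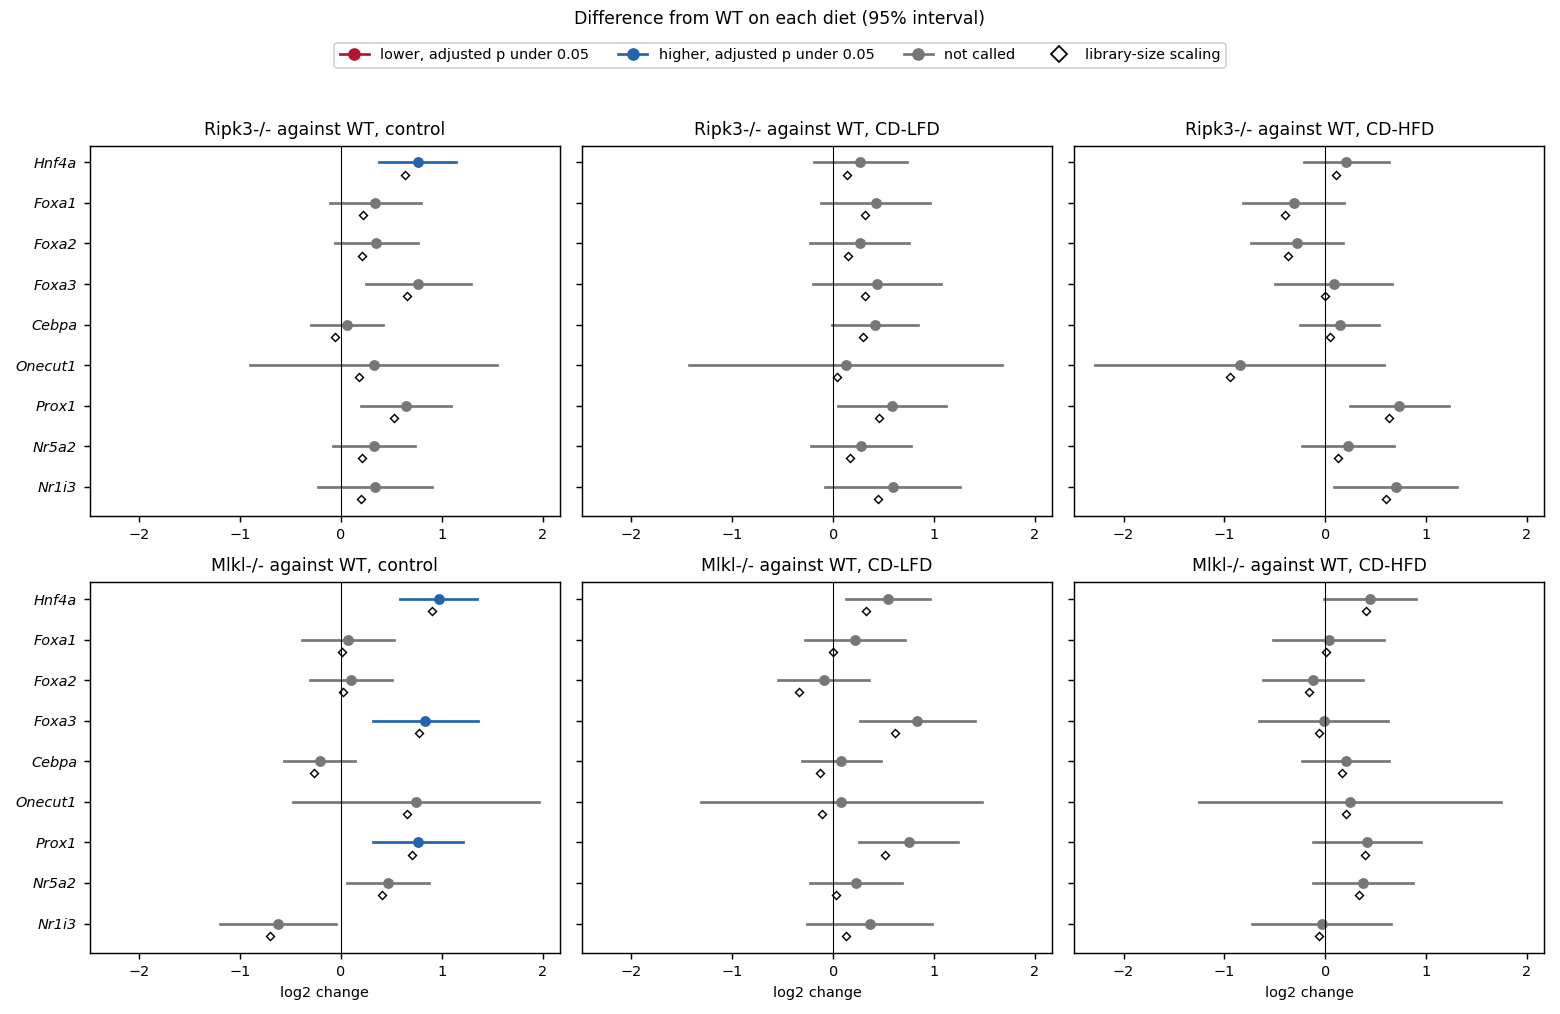
log2 difference of each member from WT in Ripk3-/- (top) and Mlkl-/- (bottom) livers on each diet, with 95% intervals; diamonds use library size alone. Called differences are in control livers: Hnf4a in both knockouts, Foxa3 and Prox1 in Mlkl-/-.

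The clock difference between libraries was compared with the control-diet differences. Hnf4a was at 591 and 851 CPM in the 2 WT control libraries on the knockouts' side of the split and at 427 to 704 in the other 4, ranges that overlap. Those 2 libraries had log2 ratios of -5.67 and -7.47, below all Mlkl-/- control libraries (-3.60 to -4.87). The split therefore does not match the ratio itself in the comparison with Mlkl-/- livers. Foxa3 was at 82.6 and 121 CPM in those 2 against 35.7 to 70.3 in the other 4, and Prox1 at 146 and 162 against 76.5 to 122. With the clock phase in the model, Hnf4a in Mlkl-/- livers was still called (0.88, adjusted p = 0.00818), and the other 3 values were not: Hnf4a in Ripk3-/- livers was 0.67 (adjusted p = 0.188), Foxa3 0.43 (adjusted p = 0.347) and Prox1 0.44 (adjusted p = 0.279). Among libraries of the one phase alone none of the 4 was called; Hnf4a in Mlkl-/- livers was 0.75 (adjusted p = 0.0586). The member called there was Cebpa, with a log2 difference of -0.59 in Mlkl-/- livers (adjusted p = 0.029), which was not called over all libraries.

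A ratio between members within a library does not depend on scaling. The log2 ratio of Hnf4a to Cebpa counts was 1.33 ± 0.52 (SD, n = 6) in Mlkl-/- control livers, 0.82 ± 0.64 (n = 6) in Ripk3-/- and 0.20 ± 0.30 (n = 6) in WT control livers. Every Mlkl-/- library (0.97 to 2.29) was above every WT library (-0.35 to 0.49), with a two-sided exact permutation p of 0.00216, the smallest that 6 against 6 allow, and 0.0519 adjusted over the 24 tests. Against the 2 WT libraries in the same clock phase the difference was 1.34, beside 1.13 over all 6. The ratio was lower on the diets in Mlkl-/- livers, at 0.67 ± 0.09 (n = 4) with CD-LFD and, with CD-HFD, 0.47 ± 0.04 (n = 3; exact permutation p = 0.00952 and 0.0238, the smallest these group sizes allow; adjusted 0.0571 and 0.0714). It was 0.21 ± 0.16 (n = 6) and 0.23 ± 0.17 (n = 6) in WT livers on the same diets.

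No member was called in a test of whether a diet acted differently in a knockout than in WT. Of 36 such interaction tests 0 were called and 3 had an unadjusted p under 0.05, with 0.132 as the lowest adjusted p; 10.3% of all genes were called in at least 1 of the 4 interactions. The 3 were Nr1i3 in Mlkl-/- on CD-LFD, given above, Foxa2 in Ripk3-/- on CD-HFD (-0.63, SE 0.30, adjusted p = 0.433) and Foxa3 in Mlkl-/- on CD-HFD (-0.85, SE 0.41, adjusted p = 0.254). The larger CD-HFD falls of Hnf4a and Foxa3 in the knockouts are therefore not shown to differ from those in WT.

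Within groups, after each group's mean had been removed from the log2 CPM of its libraries, some members varied together and others oppositely: of 36 pairs 21 had a Pearson r above zero and 15 below. Over 44 libraries, whose depths differ and in which both genes of a pair share the same scaling, Foxa1 and Onecut1 had a Pearson r of 0.71 (Spearman rho 0.65; 0.66 without the 2 libraries farthest out), Hnf4a and Nr5a2 0.68 (rho 0.66; 0.62), Foxa3 and Prox1 0.65 (rho 0.46; 0.61) and Foxa2 and Onecut1 0.62 (rho 0.52; 0.52). Hnf4a and Foxa2 had an r of -0.03 and Foxa1 and Foxa3 of 0.00. The pairs farthest below zero were Nr1i3 with Foxa3 (r = -0.47), with Hnf4a (r = -0.42; -0.30 without the 2 farthest) and with Onecut1 (r = -0.36), followed by Foxa2 with Nr5a2 (r = -0.33), Foxa1 with Prox1 (r = -0.32), Foxa2 with Prox1 (r = -0.28) and Onecut1 with Prox1 (r = -0.27). These values describe the libraries.

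**Figure D5:**
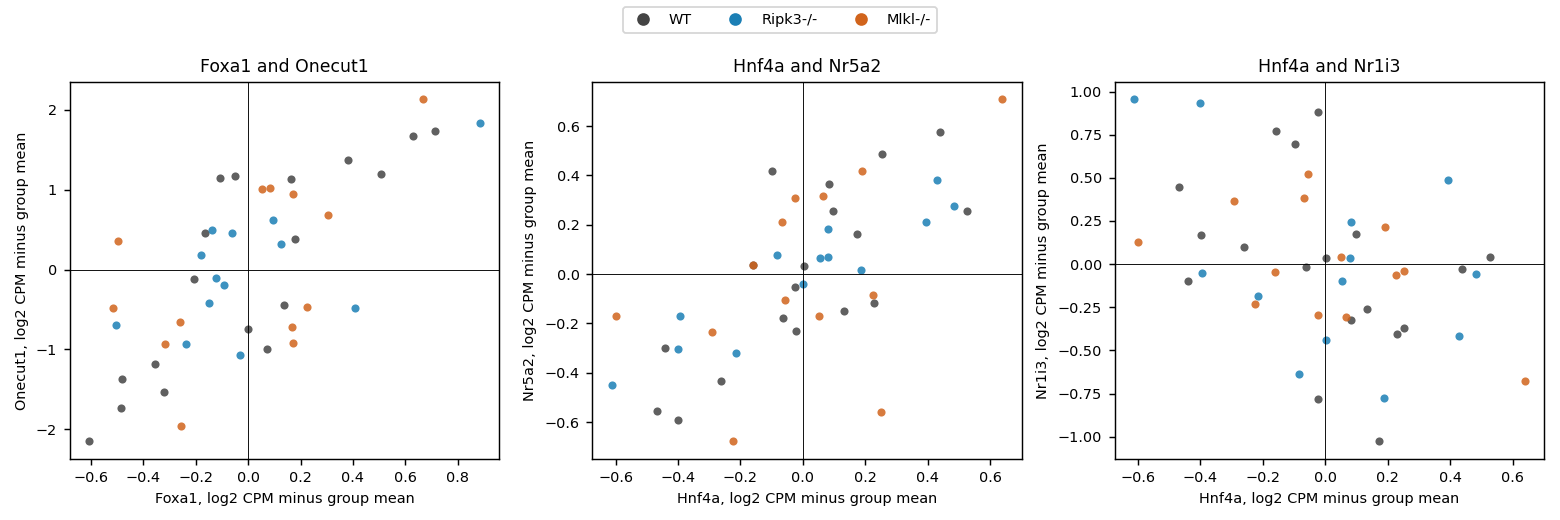
Deviation of each library from its group mean (log2 CPM) for 3 pairs of members, coloured by genotype. Foxa1 with Onecut1 (r = 0.71) and Hnf4a with Nr5a2 (r = 0.68) rise together, and Hnf4a with Nr1i3 (r = -0.42) runs the other way.

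Genes with the pattern most like each member were ranked by Pearson r over the 9 group means among 11459 genes. The closest pair of genes was Mmgt1 and Gfm1 (both 0.99) for Hnf4a, Cisd2 and C8b (both 0.99) for Foxa3, March6 and Gzf1 (both 0.99) for Prox1, and Setd2 and Itpr1 (both 0.99) for Nr5a2. For Cebpa it was Timmdc1 (0.98) and Pja1 (0.97), and for Nr1i3 Aspa (0.98) and Creg1 (0.95). Onecut1 was followed by Mrps23 (0.97) and Utp6 (0.96), Foxa2 by Ubac2 and Nfyc (both 0.94), and Foxa1 by Rgs3 (0.93) and Nudc (0.92). The ranking was not tested.

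Of the other liver transcription factors, more were called lower than higher on each diet in each genotype. In WT livers on CD-HFD, 10 of 20 fell and 2 rose, with a median log2 change of -0.52. Of all genes 24.1% were called lower and 23.5% higher there. Under library-size scaling 3 of the 20 fell and 3 rose, with a median of -0.04. Srebf1, the driver of fatty acid synthesis, went from 584 ± 277 to 128 ± 31.6 CPM (SD, n = 6 each; log2 change -2.19, adjusted p = 8.55e-09), and Tbx3, a factor of the pericentral hepatocyte, from 46.1 ± 10.3 to 11.7 ± 4.99 (log2 change -1.98, adjusted p = 1.48e-08). Cebpd, an acute-phase relative of Cebpa, rose from 7.31 ± 2.00 to 30.3 ± 4.90 CPM (log2 change 2.05, adjusted p = 7.89e-10). Mlxipl, which encodes the glucose-sensing factor ChREBP, fell by 1.44 on the log2 scale (SE 0.26, adjusted p = 1.25e-05). With CD-LFD the list had 5 lower and 2 higher in WT, 3 and 2 in Ripk3-/- and 5 and 1 in Mlkl-/- livers. The shares of all genes lower and higher were 14.0% and 13.7% in WT, 10.1% and 14.0% in Ripk3-/-, and 18.3% and 19.7% in Mlkl-/- livers. With CD-HFD, Ripk3-/- livers had 10 lower and 2 higher (21.7% and 24.6% of all genes) and Mlkl-/- livers 6 and 2 (20.3% and 24.9%).

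Of the other nuclear receptors, 8 of 16 tested fell in WT livers on CD-HFD and 0 rose, with a median of -0.51; under library-size scaling 1 fell and 2 rose. Rora fell by 0.67 (SE 0.15, adjusted p = 0.00033) and Thrb, a thyroid hormone receptor, by 0.98 (SE 0.20, adjusted p = 7.18e-05) on the log2 scale. The same list had 7 higher and 3 lower in Mlkl-/- livers on CD-LFD, beside 0 and 7 in WT and 2 and 2 in Ripk3-/- livers; 19.7% of all genes were called higher and 18.3% lower in Mlkl-/- livers there. On CD-HFD 9 fell and 0 rose in Ripk3-/- livers, where 21.7% of all genes were called lower and 24.6% higher. In Mlkl-/- livers 2 fell and 2 rose, where 20.3% were lower and 24.9% higher. In WT the shares of all genes lower and higher were 24.1% and 23.5% on CD-HFD and 14.0% and 13.7% on CD-LFD. In Ripk3-/- livers on CD-LFD they were 10.1% and 14.0%.

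Of the known targets of CAR more were called lower than higher on each diet in each genotype. Of 13 CAR targets, 8 fell and 3 rose in WT livers on CD-HFD, where 24.1% of all genes were called lower and 23.5% higher. Their median log2 change was -1.52, and 7 fell and 3 rose under library-size scaling. Cyp2c29, a drug-metabolising P450, went from 997 ± 726 to 14.0 ± 8.64 CPM (SD, n = 6 each; log2 change -6.15, adjusted p = 8.47e-13), and Cyp2c37 from 250 ± 49.6 to 46.0 ± 11.0 (log2 change -2.44, adjusted p = 5.84e-11). Cyp2b10, the classic CAR target, was at 5.59 ± 5.01 CPM on control diet and at 0.018 ± 0.045 on CD-HFD, too near zero for a fold. At the CD-HFD level it could pass the count filter only through other groups, so its values are a description. Gstm3 and Gadd45b rose, by 1.52 (adjusted p = 1.38e-05) and 3.0 (adjusted p = 2.06e-07) on the log2 scale. In each knockout 7 of the 13 fell and 2 rose on CD-HFD. The shares of all genes lower and higher there were 21.7% and 24.6% in Ripk3-/- and 20.3% and 24.9% in Mlkl-/- livers. On CD-LFD 8 fell and 2 rose in WT (14.0% and 13.7% of all genes). In Ripk3-/- livers 7 fell and 2 rose (10.1% and 14.0%), and in Mlkl-/- livers 5 fell and 1 rose (18.3% and 19.7%).

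Of 7 LRH-1 targets, 4 fell in WT livers on CD-HFD and 0 rose (median -1.12; 2 fell and 1 rose under library-size scaling). Cyp8b1, which makes cholic acid, went from 341 ± 155 to 89.6 ± 20.4 CPM (log2 change -1.93, SE 0.32, adjusted p = 4.36e-06). On CD-HFD 2 of the 7 fell in Ripk3-/- and 1 in Mlkl-/- livers, on CD-LFD 2 in WT and 1 in Ripk3-/- livers, with 0 higher in these 4 comparisons. Of all genes 21.7%, 20.3%, 14.0% and 10.1% were called lower in these 4, in the same order, and 24.1% in WT on CD-HFD. In Mlkl-/- livers on CD-LFD 18.3% of all genes were lower and 19.7% higher. In Mlkl-/- livers on CD-LFD, in which Nr5a2 was called lower, 3 of these 7 were called higher and 1 lower: Cyp8b1 (0.94, adjusted p = 0.0294), Nr0b2 (1.48, adjusted p = 0.00283) and Abcg5 (1.0, adjusted p = 0.00719) were higher and Scarb1 (-0.60, adjusted p = 0.0297) lower. On control diet 4 of the 7 were called lower in Mlkl-/- than in WT livers and 1 higher (median -0.95), where 14.1% of all genes were lower and 13.0% higher, and on CD-LFD 0 of 7 were called against WT. These 4 named targets were singled out after their values had been seen.

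Secreted and metabolic products of hepatocytes fell with the factors on CD-HFD. In WT livers 21 of 23 fell and 1 rose (median -0.86, and 11 fell and 1 rose under library-size scaling). In Ripk3-/- livers 17 of 23 fell and in Mlkl-/- livers 14 of 23, with 0 higher in either. Of all genes, 24.1%, 21.7% and 20.3% were called lower in WT, Ripk3-/- and Mlkl-/- livers there. G6pc, the last enzyme of glucose release, went from 855 ± 325 to 114 ± 32.8 CPM in WT livers (SD, n = 6 each; log2 change -2.91, adjusted p = 2.78e-06), and Hpd, of tyrosine breakdown, fell by 1.19 (SE 0.15, adjusted p = 2.08e-08) on the log2 scale. On CD-LFD 10 of 23 fell in WT and 5 in Ripk3-/- livers, where 14.0% and 10.1% of all genes were called lower. In Mlkl-/- livers 3 fell and 5 rose, near the shares of all genes called lower (18.3%) and higher (19.7%).

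Of 16 bile-duct and fetal liver genes, 12 passed the count filter; some are near zero on control diet and could pass it only through the diet groups, so their counts are a description. On CD-HFD 11 of these were called higher in WT, 12 in Ripk3-/- and 12 in Mlkl-/- livers, where 23.5%, 24.6% and 24.9% of all genes were. On CD-LFD 7, 9 and 3 were called higher in WT, Ripk3-/- and Mlkl-/- livers, where 13.7%, 14.0% and 19.7% of all genes were. Spp1, osteopontin, went from 39.9 ± 8.85 to 799 ± 174 CPM in WT livers (SD, n = 6 each; log2 change 4.33, adjusted p = 7.3e-13) and Epcam from 1.74 ± 0.86 to 34.0 ± 8.03 (log2 change 4.26, adjusted p = 6.93e-09). The fetal transcript H19 was at 0.057 ± 0.14 CPM on control diet and at 25.0 ± 33.0 on CD-HFD, with no fold or p-value given because the control level is near zero.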

How the data were processed

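Liver total RNA of 44 samples was sequenced from directional libraries. The authors deposited raw read counts per Ensembl gene; the submitters' processing notes name FastQC, STAR, HTSeq, edgeR, limma and the build GRCm39 (mm39), without versions, and the counting settings are not given in the sources used here. Replicates' counts differed beyond sampling noise. Genes were filtered with filterByExpr (minimum count 10), scaled by TMM and tested with edgeR 4.0.16 (quasi-likelihood test, 9 group means, all 44 libraries, Benjamini-Hochberg within each of 19 contrasts, threshold 0.05) in R 4.3.3; depth limits Onecut1 most, with a lowest count of 8. SE is the log2 change over the square root of F. Levels per kb use exon-union lengths from GENCODE M21. Promoters are from RefSeq, matched by symbol for 9 of 9 members (14 starts). Exact permutation tests used SciPy. The script was tested on simulated data. The members and gene lists were chosen with earlier results of these data known. Named from each list were up to 3 called genes with the largest rise and 3 with the largest fall in WT on CD-HFD, at a mean log2 CPM from 1 upwards and with no overlap of groups, and for each member the 2 genes of highest Pearson r over 9 group means. 1 list gene that this rule picked is not reported here. Alternatives were DESeq2 1.42.0, other scalings, no count filter, only the compared groups, replicate block and leaving out libraries; those on clock phase, on pairs of libraries and on within-library ratios were chosen after seeing the data. 3 list genes were absent from the table.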

Additional observations from a re-analysis of the deposited data

Results flagged for a closer look

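Among 63 sets of 4 to 10 libraries tested, each 1 member in 1 group, 7 held a library whose gap to the rest was above Dixon's 95% critical value. For normally distributed values chance flags about 1 in 20 sets. These sets share libraries between members, and their CPM were not put on a log scale. Onecut1 was at 70.5 CPM in Ripk3-/- control replicate 5 against 10.1 to 24.5 in the other libraries of its group, and Foxa1 was at 54.3 in the same library against 20.6 to 32.0. Mlkl-/- CD-LFD replicate 4 stood apart for Onecut1 (32.8 against 3.73 to 5.17) and Foxa2 (63.4 against 23.1 to 30.0). Ripk3-/- CD-HFD replicate 1 was low for Hnf4a (373 against 449 to 458) and high for Foxa1 (22.8 against 15.1 to 16.1). Nr1i3 was at 46.1 in WT CD-LFD replicate 4 against 21.4 to 30.4.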

How the results depend on the processing

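Of 32 called member values, none changed direction under any alternative run. All 32 were called with size factors of the relative log expression type, with DESeq2 and with the replicate block; 17 were called with library size alone, 26 with only the compared groups, 30 without the count filter, 28 with clock phase as covariate and 24 of 28 in the larger clock phase. Counts of members called that moved by over 1.5 times are given next, with the other diet counts under library size. With library size alone they were 0 for WT CD-HFD, 2 for WT CD-LFD and 2 for Ripk3-/- CD-HFD, each against control, and 2 for Ripk3-/- CD-LFD, 3 for Mlkl-/- CD-HFD and, with Nr1i3 higher, 5 for Mlkl-/- CD-LFD; without the filter 2 for WT CD-LFD. With only the compared groups they were 2 for WT CD-LFD, 0 for control Ripk3-/- against WT, 1 for CD-HFD Ripk3-/- against WT, 2 for CD-LFD Mlkl-/- against WT, and 1 (Mlkl-/-) and 3 (Ripk3-/-) for CD-HFD against CD-LFD. With clock phase as covariate, and in the larger phase, they were 0 for control Ripk3-/- and 1 for control Mlkl-/- against WT (Hnf4a with the covariate, and in the larger phase Cebpa, which was not among the 32), and the larger phase gave 1 for Ripk3-/- CD-HFD against CD-LFD; without WT control replicates 5 and 6 control Ripk3-/- had 0. The cause was not tested. WT CD-LFD had no library in the larger phase.

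Leaving out 1 library gave 5 to 6 members called for WT CD-HFD, 2 to 5 for WT CD-LFD, 7 to 8 for Ripk3-/- CD-HFD, 1 to 4 for Ripk3-/- CD-LFD, 4 to 4 for Mlkl-/- CD-HFD and 4 to 6 for Mlkl-/- CD-LFD. It gave 0 to 3 for Ripk3-/- and 2 to 4 for Mlkl-/- against WT on control diet, and 0 in the other comparisons. Libraries with the same replicate number were not alike in general. The 146 such pairs had a median correlation of deviations of -0.01, with 42 pairs over 0.1 and a highest value of 0.545. For 13 of 44 libraries the best match in another group had their own number. The replicate block changed no call of the 32. Of 139 values not called, 57 changed sign under some alternative.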
